A study of Oreochromis niloticus with 12 samples.

Results

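The genes described here encode 3 gonadotropin-releasing hormone precursors (gnrh1, gnrh2 and gnrh3), the kisspeptin precursor kiss2, the tachykinin precursors tac1 and tac3a, and the neurokinin B receptors tacr3a and tacr3b. They were chosen by name, and all 8 were found among the 27115 genes of the brain table, 7 under their own symbol and tac3a under LOC102082036, to which RefSeq gives that symbol. The samples were whole brains of sexually mature males of the Nile tilapia, Oreochromis niloticus (Lake Manzala strain), a cichlid with dominance hierarchies among its males. Each tank held 2 males with females, and after 14 days brains were taken from socially stable dominant males (3 libraries) and from subordinate males (3 libraries). The series text calls the dominant males reproducing and the subordinate males not reproducing. Pituitaries of both kinds of male gave another 6 libraries, for 12 in all. The labels do not say whether samples of the same status came from separate tanks, and p-values therefore measure only the spread between these samples, which may be technical in part.

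Gonadotropin-releasing hormone (GnRH) is a short peptide that neurons release toward the pituitary, where it drives secretion of luteinising and follicle-stimulating hormone. In teleosts such as tilapia the gnrh1 neurons of the preoptic area have this role, gnrh2 is made by a small cluster of midbrain tegmental neurons, and gnrh3 by neurons of the terminal nerve close to the olfactory bulbs. Kisspeptin and neurokinin B act upstream of GnRH neurons in mammals, and both peptides are also made in the fish hypothalamus. Because each library was made from a whole brain, fewer cells of a type and less RNA per cell cannot be told apart in these libraries.

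Brain libraries held 23733115 to 26867631 recovered reads. Values are normalised reads per gene, meaning the gene's read count divided by the library's size factor. Of 19 neuronal and glial marker genes found, none was at 0 in any library. Their summed level was 324020 to 337514 in dominant against 294070 to 348857 in subordinate brains, with snap25 and mbpa as the largest parts. The groups did not overlap for gfap, fabp7a and plp1a, higher in dominant brains, and for syt1, lower in them. Over all genes tested below, 10.8% had groups that did not overlap. Status differences were taken from limma on log2(value + 1) over the 21743 genes that averaged 10 or more normalised reads, and a gene was called at an adjusted p under 0.05 (Benjamini-Hochberg over all genes). limma called 6 genes, which is 0.0276% of those tested. The number called was 2, 3 and 1 without dominant brain 1, 2 and 3, and 15, 3 and 3 without subordinate brain 1, 2 and 3. Among regional markers, limma and edgeR called 0 of 11 tested hox genes of groups 5 to 13. They also called 0 of 13 tested olfactory bulb and dorsal forebrain genes, and DESeq2 called 3 hox and 2 forebrain genes. Of 7 tested habenula genes limma and edgeR called 0 and DESeq2 called 1, where DESeq2 called 0.386% of all tested genes. By limma 2 of these habenula genes, slc5a7a and chata, had an unadjusted p under 0.05, both higher in dominant brains. The list did not move together. Its limma estimates were higher in dominant brains for 5 genes and lower for 2, kctd12 (log2 difference -0.33) and aoc1 (-0.16). Among the higher ones gng8 differed by 0.42, pou4f1 by 0.06 and kctd12b by 0.04. The gene slc5a7a stood at 448, 347 and 396 in dominant against 252, 162 and 146 in subordinate brains. At an unadjusted p under 0.05 limma had 8 of the 11 hox genes, all higher in dominant brains, and 5 of the 13 forebrain genes, all lower. Over all tested genes limma had 5.17% at that threshold. The summed level of the 15 hox genes found, which mark hindbrain and spinal cord, was 1340, 1898 and 1071 in dominant against 811, 70.6 and 157 in subordinate brains, and the groups did not overlap. Of these hox genes 9 were at 0 in at least 1 library. The summed level of the 15 forebrain genes found was 7402 to 10336 in dominant against 11938 to 14494 in subordinate brains, again without overlap. Pituitary hormone transcripts summed to 10366 to 15006 in dominant brains, and to 13859, 14470 and 29533 in subordinate brains 1, 2 and 3. All 8 tested genes of this list were lower in dominant brains, and limma, edgeR and DESeq2 called 0 of them. At an unadjusted p under 0.05 limma had 1 and DESeq2 5 of the 8. The groups did not overlap for 3, the gonadotropin subunit genes cga, lhb and fshb.

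None of the 8 genes was called between dominant and subordinate brains. The lowest limma adjusted p among them was 0.934. At an unadjusted p under 0.05 there was 1 gene, tac3a, against 5.17% of all tested genes, and edgeR and DESeq2 on the recovered reads also called 0 of 8 after adjustment and 1 before it. After adjustment edgeR called 0.0276% and DESeq2 0.386% of all tested genes, and before it 5.03% and 4.61%. All 8 pairs of groups overlapped, and 10.8% of all tested genes had groups that did not. With so few genes this is not far from the share over all tested genes. The estimate was higher in dominant brains for 6 genes (gnrh2, gnrh3, kiss2, tac1, tac3a and tacr3a) and lower for gnrh1 and tacr3b, while 48.8% of all tested genes were higher. What separated the genes was how far single brains differed from each other. The levels of tac1, gnrh1 and tacr3a varied least from brain to brain, and those of gnrh3, gnrh2, tacr3b and kiss2 ranged widely within both groups.

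**Figure D1:**
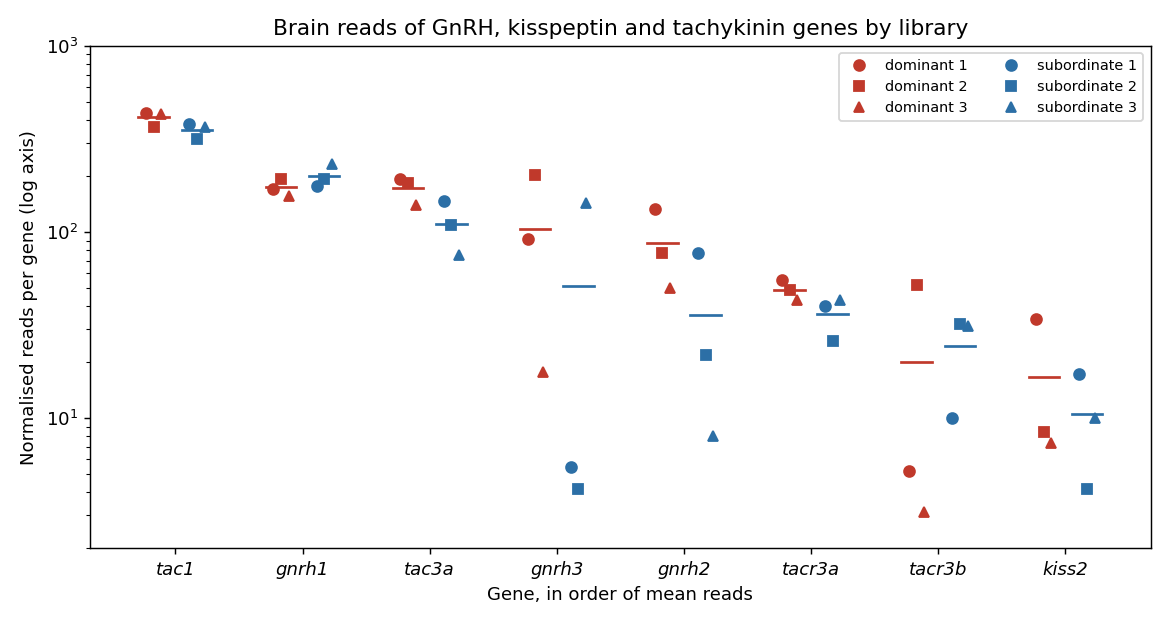
Normalised reads of the 8 genes in each of the 6 brain libraries (log axis), with dominant brains in red, subordinate brains in blue, the symbol shape giving the replicate number and horizontal bars the group means. The 6 values of tac1 lie between 317 and 438, while those of gnrh3 run from 4.16 to 203.

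In order of mean reads over the 6 brains, tac1 came first with 384 ± 45.6 normalised reads (SD, n = 6). It was followed by gnrh1 with 187 ± 26.7, tac3a with 141 ± 44.2, gnrh3 with 77.6 ± 83.1 and gnrh2 with 61.4 ± 45.3. At the lower end were tacr3a with 42.7 ± 9.76, tacr3b with 22.2 ± 19.3 and kiss2 with 13.6 ± 11.0. This is an order of reads and not of transcript molecules, since a longer transcript gives more reads and no transcript lengths were used here. Only the first step was clear of the spread, as the lowest tac1 value (317) lay above the highest gnrh1 value (233). At each of the other 6 steps the ranges overlapped, and the upper gene had more reads in 5 of 6 brains for gnrh1 over tac3a, in 2 of 6 for gnrh3 over gnrh2 and in 3 of 6 for tacr3b over kiss2. Dominant and subordinate brains gave the same order except that gnrh2 came before tacr3a in dominant brains and after it in subordinate brains.

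The spread between libraries can be set against counting error. For tacr3a the coefficient of variation (CV, the SD as a percentage of the mean) over 6 brains was 22.9%, where counting error alone gives 15.3%. It was 11.9% for tac1 (counting 5.10%), 14.3% for gnrh1 (7.30%) and 31.3% for tac3a (8.39%). The CV was highest in the other 4 genes, at 107% for gnrh3 (counting 11.3%), 86.6% for tacr3b (21.0%), 81.0% for kiss2 (27.1%) and 73.8% for gnrh2 (12.7%). Among the 4045 tested genes within 2-fold of the mean of gnrh3, only 0.865% had a CV at least as high. The corresponding shares were 3.33% for gnrh2, 5.08% for tacr3b, 7.56% for kiss2 and 12.7% for tac3a, against 36.3% for tac1, 42.5% for gnrh1 and 59.1% for tacr3a.

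**Figure D2:**
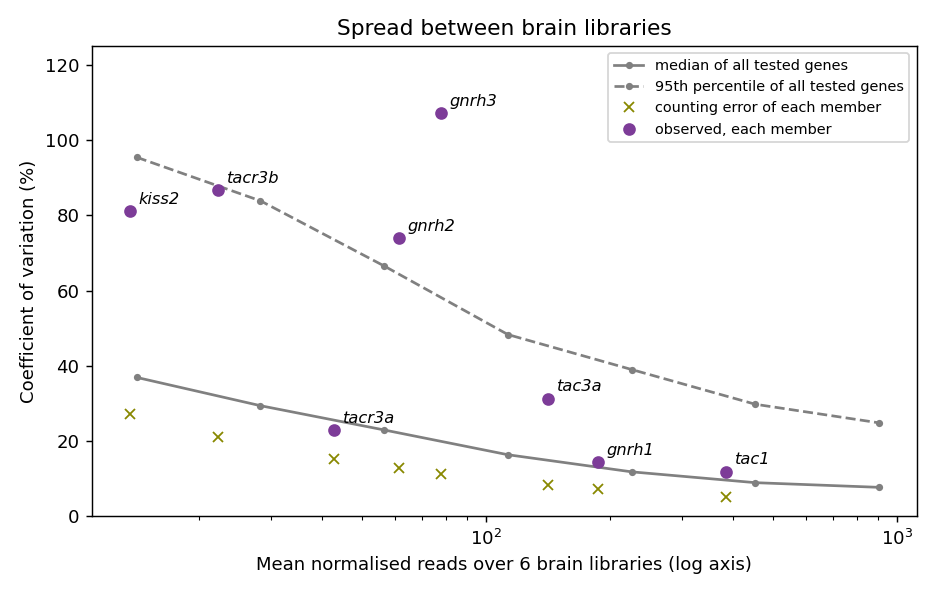
Coefficient of variation over the 6 brain libraries against mean normalised reads (log axis) for each of the 8 genes (filled circles), with the part that counting error gives (crosses) and the median and 95th percentile of all tested genes in bins of level (grey). The gene gnrh3 at 107% and gnrh2 at 73.8% lie above the upper grey line, and tac1, gnrh1 and tacr3a lie close to the lower one.

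The hypophysiotropic precursor gnrh1 was nearly level across brains. It stood at 171, 194 and 156 normalised reads in dominant brains 1, 2 and 3. Subordinate brains 1, 2 and 3 had 176, 192 and 233. The highest value was in subordinate brain 3, the lowest in dominant brain 3, and the groups overlapped. The log2 difference, dominant minus subordinate, was -0.20 ± 0.15 (SE, limma adjusted p = 0.934, exact permutation p = 0.3 where the smallest possible is 0.1). Its 95% confidence interval of -0.55 to 0.15 spans 0.682 to 1.11 times the subordinate level, counted as value + 1. With 1 brain left out the log2 difference ran from -0.29 (without subordinate brain 1) to -0.09 (without subordinate brain 3).

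The midbrain precursor gnrh2 stood at 134, 77.1 and 50.2 in dominant brains. In subordinate brains it stood at 77.4, 21.8 and 8.05, the last resting on 8 reads (exact 95% Poisson interval 3.45 to 15.8, covering counting error only). Dominant brain 1 was highest and subordinate brains 2 and 3 were lowest, while subordinate brain 1 lay level with dominant brain 2. The means were 87.0 ± 42.6 and 35.8 ± 36.7 (SD, n = 3). The limma log2 difference, taken on log2(value + 1) and so not the ratio of these means, was 1.69 ± 0.77 (SE, 95% interval -0.15 to 3.52, limma unadjusted p = 0.0667 and adjusted p = 0.934, exact permutation p = 0.3). On the recovered reads it was lower, 1.27 by edgeR and 1.28 by DESeq2, and the authors' deposited table gives 1.28. The limma log2 difference was 0.94 without subordinate brain 3 and 2.50 without subordinate brain 1. Subordinate brains 2 and 3 were also the ones with the lowest summed hox level, and the 2 highest summed levels of 12 midbrain marker genes were in dominant brain 1 (4868) and subordinate brain 1 (4717), against 3392 to 3972 in the other 4. The midbrain genes did not share an order over brains. Among them gata3 stood at 1140 in dominant brain 1 and 1302 in dominant brain 3, and en1b at 296 in subordinate brain 1 and 504 in dominant brain 2. The midbrain sum was 3623 in dominant brain 2 and 3893 in subordinate brain 3, where gnrh2 stood at 77.1 and 8.05. For these midbrain genes limma called 0 of the 11 tested. The part of these markers in the gnrh2 values was not tested.

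The terminal nerve precursor gnrh3 had the widest range of the 8, at 91.2, 203 and 17.8 in the dominant and 5.46, 4.16 and 144 in the subordinate males. Subordinate brains 1 and 2 held only 6 and 4 reads (exact 95% Poisson intervals 2.2 to 13.1 and 1.09 to 10.2), whereas subordinate brain 3 held 143 and stood above dominant brains 1 and 3. High and low libraries thus occurred in both groups, with 48.9-fold between the lowest and the highest. The log2 difference was 2.07 ± 1.43 (SE, 95% interval -1.33 to 5.46, limma adjusted p = 0.934, exact permutation p = 0.5). On the recovered reads it was 1.04 by edgeR and 1.03 by DESeq2, and with 1 brain left out it ran from 1.21 (without subordinate brain 2) to 3.62 (without subordinate brain 3). Expressed per read of gnrh1 in the same brain, gnrh3 gave 0.533, 1.05 and 0.114 reads in dominant and 0.0311, 0.0216 and 0.616 in subordinate brains, a 48.5-fold range. Per read of gnrh2 the range was wider, from 0.0706 in subordinate brain 1 to 17.9 in subordinate brain 3. The summed olfactory bulb and dorsal forebrain level was 7402, 9838 and 10336 in dominant and 11938, 13014 and 14494 in subordinate brains. Most of that sum came from the transcription factor genes eomesa, bhlhe23 and bhlhe22, while the olfactory marker genes omp and ompa had 4.02 to 16.6 normalised reads per brain. The part of these markers in the gnrh3 values was not tested.

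The gene kiss2, the precursor of the kisspeptin that acts on the receptor gpr54, was close to the limit of what this depth can resolve. It stood at 34.2, 8.47 and 7.33 normalised reads in dominant and at 17.3, 4.16 and 10.06 in subordinate brains. These values rest on 4 to 33 reads. The highest value was in dominant brain 1 and the next in subordinate brain 1, which are also the brains with the 2 highest summed midbrain levels given above. The summed level of 17 hypothalamic and preoptic genes was 18646, 29325 and 29700 in dominant and 19586, 28996 and 12824 in subordinate brains, so dominant brain 1 and subordinate brain 1 were among the 3 lowest. Most of that sum came from avp and oxt, and the genes of the list did not share an order over brains. In dominant brain 1 and subordinate brain 1 avp stood at 6418 and 8501, against 4074 to 18150 in the other brains. In the same 2 brains otp stood at 138 and 165, against 106 to 135 in the others. The part of either marker list in the kiss2 values was not tested. The log2 difference was 0.47 ± 0.73 (SE, 95% interval -1.25 to 2.2, limma adjusted p = 0.950), and it turned to -0.02 without subordinate brain 2 and was 0.90 without subordinate brain 1. The interval allows from 0.419 to 4.58 times the subordinate level counted as value + 1, which at these low values is not the same as the level itself.

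Among the tachykinin precursors, tac1 encodes substance P and neurokinin A, and tac3a encodes neurokinin B. The level of tac1 was 438, 369 and 433 in dominant against 382, 317 and 365 in subordinate brains. Dominant brains 1 and 3 lay above all subordinate brains, and dominant brain 2 fell within the subordinate range. The log2 difference of tac1 was 0.22 ± 0.11 (SE, 95% interval -0.05 to 0.49, limma adjusted p = 0.934), so that the interval ends at 1.40 times the subordinate level, counted as value + 1. It was 0.14 without subordinate brain 2 and 0.30 without dominant brain 2. For tac3a the values were 193, 183 and 140.2 in dominant against 148, 109 and 75.5 in subordinate brains. In 8 of 9 pairs of a dominant with a subordinate brain the dominant one was higher, the exception being dominant brain 3 against subordinate brain 1. The log2 difference of tac3a was 0.67 ± 0.26 (SE, 95% interval 0.05 to 1.29, limma unadjusted p = 0.0374 and adjusted p = 0.934, exact permutation p = 0.2). The authors' deposited table gives tac3a a log2 fold change of 0.63 with an unadjusted p of 0.0311, the lowest among the 8. Without subordinate brain 3 the log2 difference was 0.42. The lowest tac3a values were again in subordinate brains 2 and 3, the libraries with least hox signal, and the part of these markers was not tested. In the RefSeq assembly used for names, 323 bases of the tac3a locus overlap c1galt1la, which stood between 259 and 301 in all 6 brains. The library kit does not mark strand, so reads in that overlap could belong to either gene. None of the other 7 loci overlapped a listed gene.

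The neurokinin B receptors differed in how they varied. The level of tacr3a was 55.0, 48.9 and 42.9 in dominant against 40.1, 26.0 and 43.3 in subordinate brains. The value in subordinate brain 2 was the lowest and the other 5 were close together. The log2 difference was 0.44 ± 0.26 (SE, 95% interval -0.17 to 1.05, limma adjusted p = 0.934), and it was 0.22 without subordinate brain 2 and 0.58 without subordinate brain 3. In contrast tacr3b stood at 5.18, 51.7 and 3.14 in dominant against 10.02, 32.2 and 31.2 in subordinate brains. Dominant brain 2 was the highest of all 6 and dominant brains 1 and 3, with 5 and 3 reads, were the lowest. The log2 difference of tacr3b was -1.04 ± 1.0 (SE, 95% interval -3.41 to 1.33, limma adjusted p = 0.935). It was -0.28 by DESeq2 and -0.26 by edgeR on the recovered reads, and -2.17 without dominant brain 2 against -0.33 without dominant brain 3. Per read of tacr3a, tacr3b gave 0.0943, 1.06 and 0.0732 reads in dominant and 0.250, 1.24 and 0.721 in subordinate brains, a 16.9-fold range. The ratio was low in dominant brains 1 and 3 and subordinate brain 1 and high in the other 3, and groups overlapped.

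**Figure D3:**
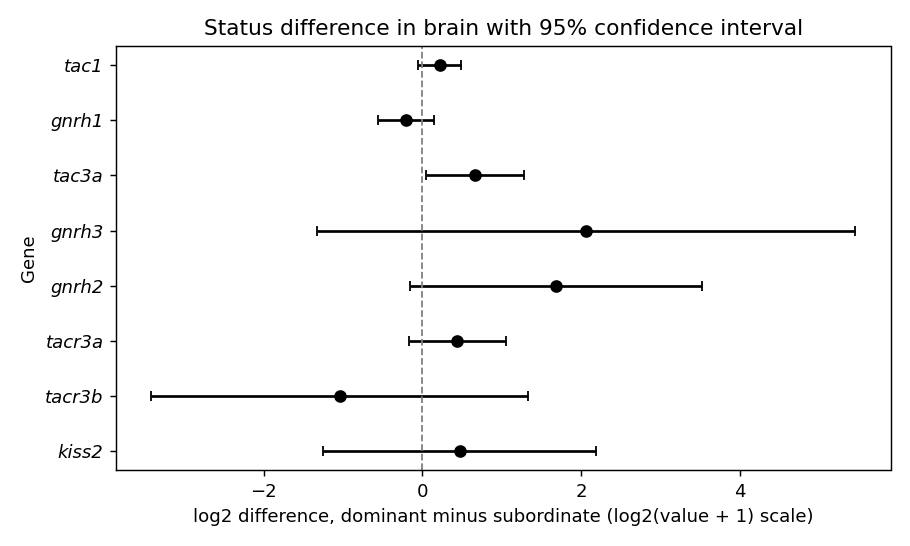
The log2 difference, dominant minus subordinate, for each of the 8 genes (points, in log2 units of value + 1) with its 95% confidence interval from limma (bars). Only the interval of tac3a, 0.05 to 1.29, excludes 0 before adjustment, and those of gnrh3 and tacr3b are the widest.

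The genes whose profiles over the 6 brains were most like each of the 8 were taken as those with the smallest root mean square (RMS) difference of centred log2 values among 14922 named genes. The likeness measure is a description only. For gnrh3 the nearest gene was npff, the neuropeptide FF precursor, at 92.3, 460.04 and 12.6 normalised reads in dominant and 3.64, 4.16 and 396 in subordinate brains. Its RMS difference from gnrh3 was 0.760 on the log2 scale, where gnrh3 itself had an RMS of 2.12 about its own mean. Like gnrh3, npff was high in dominant brains 1 and 2 and subordinate brain 3 and lowest in subordinate brains 1 and 2. The next gene, aldoca, an aldolase, was already at 1.31 and ran from 882 to 4066.

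The profile of gnrh2 was most like those of cks2, a cell cycle protein (RMS difference 0.340), cart4, a CART peptide precursor (0.352), and nefl, the neurofilament light chain (0.389). The gene cart4 stood at 206, 115 and 65.9 in dominant against 140.2, 33.2 and 24.1 in subordinate brains. For nefl the values were 4580, 3678 and 3451 in dominant against 2806, 663 and 365 in subordinate brains, and these groups did not overlap. Both were lowest in subordinate brains 2 and 3, as gnrh2 was.

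The profile of tacr3b was most like those of hpn, a membrane serine protease (RMS difference 0.389), celf1, an RNA-binding protein (0.652), and calhm6, a channel family member (0.701). Of these hpn stood at 3.11, 39.5 and 3.14 in dominant against 4.55, 20.8 and 13.1 in subordinate brains. The values of celf1 were 77.8, 495 and 85.8 in dominant against 333, 284 and 355 in subordinate brains. All 3 were low in dominant brains 1 and 3 and clearly higher in dominant brain 2. For kiss2 the nearest were ferd3l, a transcription factor (0.299), cfap300, a cilia protein (0.306), and hyal4, a hyaluronidase (0.313). Nearest to tac3a were sparcl1 (0.0832), cacna2d3, a calcium channel subunit (0.0832), and gjb1a, a connexin (0.0856). Nearest to tacr3a were synpo2b (0.0488), hsf2bp (0.0582) and fgf20a, a growth factor (0.0776). Within 0.25 of tac3a and of tacr3a lay 178 and 699 genes, so these neighbours were not distinctive. The count was 0 for gnrh2, gnrh3, kiss2 and tacr3b. That does not show that their neighbours were distinctive, since a fixed limit is harder to meet for profiles that vary more. The RMS about its own mean was 1.30 for gnrh2, 2.12 for gnrh3, 0.883 for kiss2 and 1.36 for tacr3b. For tac3a and tacr3a it was 0.457 and 0.329. For tac1 (ppic, fam20a and sncgb) and gnrh1 (copz2, rp1l1a and stac) the likeness says little, since 9910 and 9236 genes lay within 0.25 of these flat profiles.

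**Figure D4:**
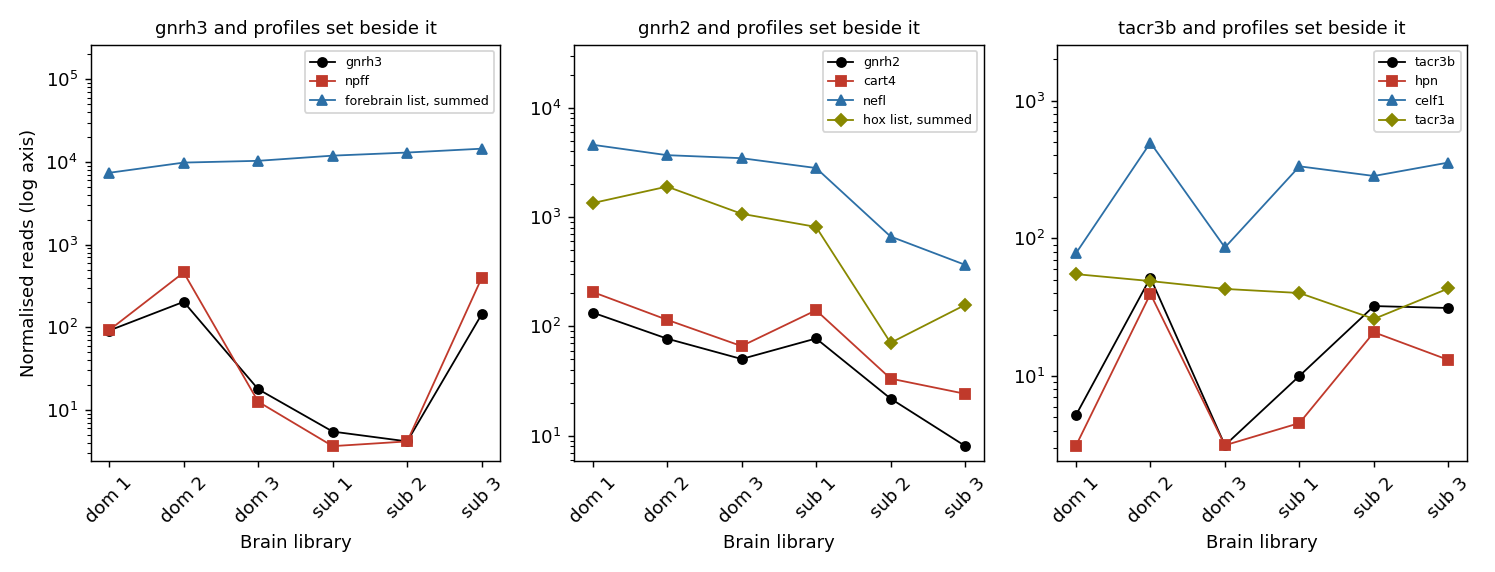
Normalised reads (log axis) in dominant (dom) and subordinate (sub) brains for gnrh3 with npff and the summed forebrain markers, for gnrh2 with cart4, nefl and the summed hox genes, and for tacr3b with hpn, celf1 and tacr3a. In the left panel gnrh3 and npff share their high libraries (dominant 1 and 2, subordinate 3), and the summed forebrain markers run from 7402 to 14494.

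The other ligands and receptors found for these systems also did not differ detectably. The list sought 32 symbols, and genes whose LOC identifier had no RefSeq symbol could not be found. Apart from the 8, 11 genes were found and 9 of them were tested. limma, edgeR and DESeq2 each called 0 of these 9, with 0 at an unadjusted p under 0.05. By limma 5 were higher and 4 lower, with a median log2 difference of 0.11, where the median over all tested genes was -0.0043. The GnRH receptor gnrhr4 stood at 94.7 ± 6.92 in dominant against 85.4 ± 28.3 in subordinate brains (SD, n = 3; log2 difference 0.20, 95% interval -0.40 to 0.79). The kisspeptin receptor gpr54 stood at 38.9 ± 8.16 and 42.9 ± 7.03 (-0.14, -0.72 to 0.43). The second kisspeptin receptor, kiss1rb, had 4.19 to 10.4 normalised reads per brain and was not tested. The tachykinin receptors tacr1a, which prefers substance P in mammals, and tacr2, which prefers neurokinin A, stood at 129 ± 20.8 and 104 ± 16.2 (0.30) and at 217 ± 39.7 and 219.5 ± 35.4 (-0.02).

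Among RFamide genes, npff differed by 1.98 (95% interval -2.71 to 6.67), its receptor npffr2 stood at 122 ± 20.4 and 116 ± 40.2 (0.11), and npffr1l2 at 43.2 ± 21.2 and 49.4 ± 28.0 (-0.14). The gonadotropin-inhibitory hormone precursor npvf had 2.82 to 6.37 normalised reads per brain and was not tested. The opioid genes pdyn, which encodes dynorphin, and oprk1, its receptor, stood at 575 ± 184 and 616 ± 105 (-0.13) and at 336 ± 7.55 and 315 ± 100.2 (0.14). The other pairs of groups in this list overlapped as well, as all 11 did.

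Further lists covered the steps around these peptides, and limma called no member of any. Beside the counts below, 5.17% of all tested genes had an unadjusted p under 0.05 by limma. In the list of gonadal steroid feedback 0 of 18 tested genes were called (6 higher, 12 lower, median log2 difference -0.064), and 1 had an unadjusted p under 0.05. This was pgrmc1, a membrane progesterone receptor component, at 2423 ± 193 in dominant against 1983 ± 148 in subordinate brains (0.29, limma adjusted p = 0.902). The brain aromatase cyp19a1b, which turns androgens into oestrogens, stood at 3530.4 ± 628 and 2656 ± 945 (0.46, adjusted p = 0.934). The membrane oestrogen receptor gper1 stood at 56.4 ± 4.2 and 44.1 ± 5.89 (0.35), and the steroid enzyme hsd3b1 at 227 ± 100.7 and 361 ± 115 (-0.72).

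For neuropeptide processing and release 0 of 22 were called (10 higher, 12 lower, median -0.011), and 2 had an unadjusted p under 0.05. These were the granins scg2 at 4535 ± 330 and 3769 ± 227 (0.27, limma adjusted p = 0.902) and chgb at 15838 ± 2356 and 12882 ± 445 (0.29, adjusted p = 0.934). In both, every dominant value exceeded every subordinate value. Groups did not overlap for 3 of these 22 genes, near the 10.8% of all tested genes. The granin-like vgf stood at 1337 ± 81.2 and 1072 ± 232 (0.34), and the convertase furina at 1087 ± 84.3 and 1229 ± 90.6 (-0.18).

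Genes for the development and migration of GnRH neurons gave 0 calls of 27 (12 higher, 15 lower, median -0.062). Those with an unadjusted p under 0.05 by limma were anos1, the gene of the adhesion protein anosmin, at 2338 ± 96.3 and 2791 ± 239 (-0.25, adjusted p = 0.934), and the axon guidance cue sema3e at 1144 ± 204 and 1403 ± 57.6 (-0.31). The prokineticin receptor prokr1b stood at 56.4 ± 5.70 and 73.6 ± 10.3 (-0.37), and sox10, of neural crest and oligodendrocytes, at 948 ± 19.0 and 826 ± 121 (0.21). In the list of Gq and calcium signalling 0 of 11 were called (6 higher, 5 lower, median 0.085), and gna11b, a G protein alpha subunit, had the smallest limma p at 1237 ± 100.4 and 1526 ± 75.9 (-0.31, adjusted p = 0.855). The inositol trisphosphate receptor itpr2 stood at 484 ± 61.8 and 416 ± 22.3 (0.21), the kinase prkca at 2343 ± 131 and 2527 ± 64.6 (-0.11), and the phospholipase plcb1 at 1470.2 ± 30.8 and 1359 ± 90.8 (0.11). edgeR and DESeq2 also called 0 genes in each of these 4 lists, and had 5 and 6 genes in all at an unadjusted p under 0.05.

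The pituitary is where GnRH acts, and the deposited pituitary table holds 714 genes, and the authors' deposited table gives every one of them a p under 0.05 (highest 0.0499). None of the 8 genes was among them, and their pituitary levels were not analysed here. Of the pathway lists 14 genes were present, 8 higher and 6 lower in dominant pituitaries, and for 11 the groups did not overlap. Over all 714 genes of that table the mean was higher in dominant pituitaries for 52.1%, and the groups did not overlap for 66%. As the table was selected by outcome, these counts are a description without a test, and nothing is read from them about the pathway lists. The progesterone receptor pgr stood at 64.2, 178 and 132 in dominant and at 47.9, 52.4 and 47.6 in subordinate pituitaries. The aromatase cyp19a1b stood at 2486, 3171 and 5943 against 1064, 2396 and 2106, and the steroid enzyme hsd3b1 at 523 to 1014 against 479 to 596. The inositol trisphosphate receptor itpr1b ran from 155 to 275 against 88.6 to 143.

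Of the neuropeptide processing and release list, 5 genes were present, all with a lower mean in dominant pituitaries. The granin scg2 stood at 73320, 84990 and 105673 normalised reads in dominant against 104178, 114663 and 120358 in subordinate pituitaries, and these groups overlapped. The groups did not overlap for scg2b with 11009 ± 2062 against 17807 ± 3112 (SD, n = 3), scg3 with 31693 ± 2614 against 39521 ± 1805, and the carboxypeptidase cpe with 22122 ± 2162 against 28064 ± 3140. In the brain the scg2 values, given above, lay the other way without a call, and the difference between tissues was not tested. The phospholipase plcb4 ran from 1212 to 1532 against 1652 to 4309. The glutaminyl cyclase qpct, which forms the amino-terminal pyroglutamate of peptides such as GnRH, stood at 60.0, 121 and 63.0 in dominant and 23.4, 418 and 1904 in subordinate pituitaries, which overlapped, with subordinate pituitary 1 the lowest of all. Of the migration list, anos1 stood at 103, 133 and 124 against 45.5, 59.9 and 65.3, sema3e at 613 to 800 against 443 to 581, and sema3a at 84.2 to 132 against 40.6 to 83.6.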

How the data were processed

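Per the labels' protocols, RNA came from miRNeasy columns and libraries from a kit named TruSeq RNA Sample Preparation v2. Per the submitters' processing notes, the tools, listed there without roles, were DESeq, DESeq2, HTSeq, STAR 2.201, Trim Galore and FastQC 0.11.4. What build, annotation and strand setting were used is not given in the sources used here. The deposited signal is called a normalised read count by the authors. Each brain column rose in equal steps (100% of values within 0.01 reads of a whole number of steps), which gave the read counts (size factors 0.956 to 1.10). The deposited log2 fold change and the unadjusted p-value of each gene, dominant over subordinate, are the authors' own.

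Names came from the table or, for LOC identifiers, from RefSeq (assembly O_niloticus_UMD_NMBU), which matched 17128 of 17130 in the brain, and 251 blank lines were dropped. Of these LOC identifiers only 5834 had a symbol there, and a gene left under its LOC identifier could not be found by name. That table was also used to see which loci overlap. No columns were left unused (0). Brain values were fitted with limma 3.58.1 (R 4.3.3, eBayes with trend) on log2(value + 1), a scale that understates changes of low genes, and two-sided p-values were adjusted over all tested genes. Alternatives were pseudocounts 0.5 and 5, no filter or one at a mean of 50, scaling by TMM or by quantiles, robust eBayes, the replicate number as a block, each brain left out, and edgeR 4.0.16 and DESeq2 1.42.0 on recovered reads, where edgeR called 6 genes and DESeq2 84. Exact permutation tests compared 3 with 3 samples. The order of abundance was planned per coding length, but no lengths were used, so reads were ranked. The genes and lists were chosen with earlier results of these data known. Named genes were the 8, all other ligands and receptors found, up to 4 per further list by smallest p, the 3 nearest profiles of each of the 8, and pathway genes in the pituitary table. Marker sums were also made for hypothalamus and preoptic area (12824 to 29700 over the 6 brains, groups overlapping), habenula (2678 to 3104, overlapping) and retina and pineal (406 to 665, overlapping). Single hypothalamic and preoptic genes did not all follow their sum. Of the 17 tested, limma called 0, and 10 were higher and 7 lower in dominant brains. The groups did not overlap for 5 of them, oxt, fezf1, trh, nkx2.4a and ghrh, all higher in dominant brains, against 10.8% of all tested genes. Most of the habenula sum came from kctd12b. Pituitary values were described and not tested, and 1 pathway gene counted there is not reported here by name.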

Additional observations from a re-analysis of the deposited data

Results flagged for a closer look

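For anos1 the groups did not overlap in either tissue and differed in opposite directions. The groups did not overlap for 10.8% of all tested brain genes and for 66% of the pituitary table, whose genes were selected by outcome. The log2 difference in brain, dominant minus subordinate, was -0.25 (limma adjusted p = 0.934), and the authors' deposited table gives 1.08 for the pituitary. The difference between the tissues was not tested.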

How the results depend on the processing

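Over the alternatives there were 124 other values of the 8 status differences, of which 123 kept their direction and stayed above an adjusted p of 0.05 (lowest 0.378). The exception in direction was kiss2, at -0.018 without subordinate replicate 2 (up to 0.896 with other replicates left out). The number of the 8 genes called stayed at 0 in every fit, and by limma on all 6 brains without a block it was 1 at an unadjusted p under 0.05. The number of all genes called was 6, with 84 by DESeq2, 1 to 15 with a replicate left out and 1124 at an unadjusted p under 0.05; the cause was not tested. With the replicate number as a block it was 1, and 3 of the 8 genes had an unadjusted p under 0.05 by limma, namely gnrh2 (0.00717), tac3a (0.00793) and tac1 (0.0433), with adjusted p = 0.684, 0.684 and 0.791. Same-numbered dominant and subordinate brains had correlations of deviations of 0.0916, -0.0303 and -0.0209 over genes, so the numbers were not taken to pair the samples, and only the samples numbered 1 correlated best with their own number. The correlation was 0.0915 for dominant brain 3 with subordinate brain 2 and 0.073 for dominant brain 2 with subordinate brain 3. All remaining differently numbered pairs had negative values. Deviations were taken from each group's own mean, so each brain had to show both signs, and nothing is read from the negative values. In the order of reads 6 to 8 genes kept their rank under the alternatives run, while orders by coding or transcript length were not run. Genes under a mean of 50 gave no value with that filter, and kiss2 gave none without dominant replicate 1. Depth limits kiss2, tacr3b and gnrh3 most, with as few as 3 or 4 reads in a brain.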
